A study of Mus musculus with 6 samples.

Results

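DNA replication and S-phase genes were followed in regulatory T cells (Treg cells), which are Foxp3-expressing CD4 T cells that curb immune responses, across 4 Foxo1 genotypes. The set was a list of 37 gene symbols covering origin licensing, the replicative helicase, DNA synthesis at the fork, nucleotide supply, chromatin assembly and the control of S-phase entry. Each gene was represented by its probe set with the highest mean over all 6 arrays, and 36 of the 37 had a probe set that the platform annotation assigns to that gene alone, out of 18194 genes on the array. All 36 lay above the filter on dim genes, which kept 13645 genes. Chaf1a was not analysed here.

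The cells were sorted from C57BL/6 mice and labelled nTreg. The groups were Foxo1 knockout (Foxo1KO, 2 arrays), Foxo1 knockout with a constitutively active form of Foxo1 (Foxo1KO/Foxo1AAA, 1 array), that active form without the knockout (Foxo1AAA, 1 array) and wild type (WT, 2 arrays). Foxo1 is a forkhead transcription factor that Akt signalling keeps out of the nucleus. The study asked which genes depend on Foxo1 and whether the active form brings their expression back in the knockout. The sources used here do not give the Cre or promoter behind each allele, the deleted part of Foxo1, how the cells were gated, how old the mice were, their sex, or how many mice went into an array. Replicates are not stated to be separate mice, and p-values therefore reflect only how far these arrays lie apart.

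A cell copies its genome once per division in steps that have their own proteins. In G1 the origin recognition complex, with Cdc6 and Cdt1, loads the Mcm2 to Mcm7 ring onto DNA, and in S phase Cdc45 and the GINS complex turn that ring into a running helicase. Polymerases, the sliding clamp Pcna and its loader then build the new strands from deoxynucleotides made by ribonucleotide reductase and its partners. Many of these genes are transcribed in late G1 by E2F factors once cyclin-dependent kinases inactivate the retinoblastoma family, and T cells leaving quiescence induce them together.

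The promoters of the genes with the largest and the smallest knockout differences among those with a RefSeq entry are shown here because E2F factors act through sites of this kind. Each window runs 5′ to 3′ on the gene's strand from 250 bases before to 50 bases after the start, on build GRCm38.p6. Capitals mark letters matching TTTNNCGC, an E2F-type motif, on either strand. Rrm2, the small subunit of ribonucleotide reductase, lies at chr12:24708004-24708303 (plus strand), Uhrf1, which brings the maintenance DNA methyltransferase to replicated DNA, at chr17:56303087-56303386 (plus strand, the first of its listed starts), and Cdc6 at chr11:98907901-98908200 (plus strand). Of the genes with small differences, Mcm6 lies at chr1:128359656-128359955 (minus strand) and Orc1, the largest subunit of the origin recognition complex, at chr4:108579204-108579503 (plus strand).
Rrm2: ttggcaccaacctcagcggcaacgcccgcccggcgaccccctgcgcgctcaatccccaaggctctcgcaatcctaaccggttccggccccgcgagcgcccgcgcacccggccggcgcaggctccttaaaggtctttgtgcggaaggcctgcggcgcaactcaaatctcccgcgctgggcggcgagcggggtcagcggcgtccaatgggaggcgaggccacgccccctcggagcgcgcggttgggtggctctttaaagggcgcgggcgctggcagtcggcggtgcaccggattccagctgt
Uhrf1: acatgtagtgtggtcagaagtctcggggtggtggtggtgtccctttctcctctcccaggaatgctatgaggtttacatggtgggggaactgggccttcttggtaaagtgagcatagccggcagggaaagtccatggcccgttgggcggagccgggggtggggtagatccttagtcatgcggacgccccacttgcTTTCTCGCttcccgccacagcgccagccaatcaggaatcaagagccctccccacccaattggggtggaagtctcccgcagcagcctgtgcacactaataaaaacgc
Cdc6: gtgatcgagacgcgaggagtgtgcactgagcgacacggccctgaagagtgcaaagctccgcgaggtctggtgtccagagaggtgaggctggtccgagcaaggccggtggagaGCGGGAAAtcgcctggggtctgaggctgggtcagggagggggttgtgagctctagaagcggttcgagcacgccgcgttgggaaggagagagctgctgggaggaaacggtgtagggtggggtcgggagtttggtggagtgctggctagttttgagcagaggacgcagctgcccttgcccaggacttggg
Mcm6: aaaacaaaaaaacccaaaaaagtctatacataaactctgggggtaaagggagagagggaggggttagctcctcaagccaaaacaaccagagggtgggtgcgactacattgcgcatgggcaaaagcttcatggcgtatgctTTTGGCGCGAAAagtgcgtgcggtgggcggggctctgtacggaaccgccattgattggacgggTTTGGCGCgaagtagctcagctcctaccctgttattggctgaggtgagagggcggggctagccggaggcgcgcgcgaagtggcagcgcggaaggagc
Orc1: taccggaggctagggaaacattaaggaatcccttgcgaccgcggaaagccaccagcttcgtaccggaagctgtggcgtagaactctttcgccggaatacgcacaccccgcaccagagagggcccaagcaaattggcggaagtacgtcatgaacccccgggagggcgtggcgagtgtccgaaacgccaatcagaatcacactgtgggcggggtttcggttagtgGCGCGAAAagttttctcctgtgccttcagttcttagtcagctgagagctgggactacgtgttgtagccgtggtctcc

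The E2F-type motif was present in 14 of the 32 listed genes with a promoter window (43.8%), against 8.2% of the 14453 genes with a window and a probe set and 5.2% of all 32851 windows of that length. Its commonest words were TTTCGCGC, in 7 of these genes, TTTGGCGC, in 6, and TTTCCCGC, in 5. In the windows above, Mcm6 held 3 matches, of which a pair overlap each other, Uhrf1, Cdc6 and Orc1 held 1 each, and Rrm2 held none, which says only that these letters are not in that window. Among other replication genes the motif was in 12 of 30 (40%), whereas among mitosis genes it was in 1 of 18 (5.6%). The CCAAT box, searched as CCAAT on both strands, was in 19 of the 32 genes (59.4%), against 42.0% of genes with a probe set and 83.3% of mitosis genes. The cell cycle homology region (CHR), searched as TTTGAA on both strands, was in 4 of the 32 (12.5%), against 15.7% of genes with a probe set and 72.2% of mitosis genes. Of the 22 E2F-type matches in windows of the listed genes, 1 overlapped a match of either other motif. The median Foxo1KO minus WT difference was 0.81 log2 units for the 14 genes with the E2F-type motif and 0.85 for the 17 measured genes with a window but no match, and the difference between these medians was not tested. Mcm4, Gins1, Gins2, Pole and Ccne2 had no entry among these windows.

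**Figure D1:**
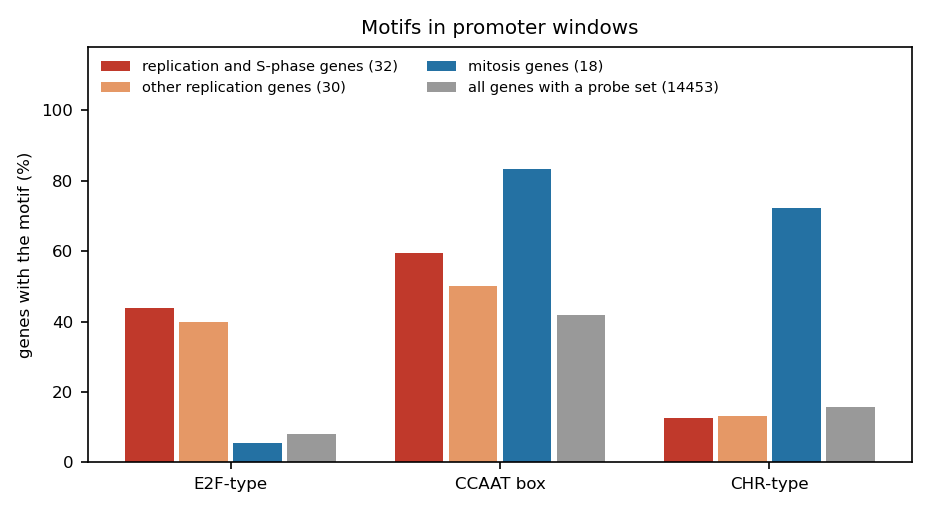
Share of genes, in percent, whose 300-base promoter window holds each motif; bars are the replication and S-phase genes (32 with a window), other replication genes (30), mitosis genes (18) and all genes with a probe set (14453). The E2F-type bars stand at 43.8% and 40% for both replication lists and at 5.6% for mitosis genes, while the CHR-type bar is tallest for mitosis genes at 72.2%.

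Before the comparisons, several features of the arrays bear on them. Cd3d was at log2 13.19 or above on every array, and 10 T and Treg cell markers had a median of -0.20 to 0.04 log2 units from the WT mean on each array, although 3 of them, among them the co-stimulatory receptor gene Cd28 (-1.19), were called lower and 1, the inhibitory receptor gene Ctla4 (0.46), higher in Foxo1KO than in WT. The only Foxp3 probe set was dim on all arrays (5.10 to 5.58, below the filter at 5.47 in the mean), so it could not check the Treg label. The 2 arrays carrying Foxo1AAA stood apart. Myeloid markers lay 3.13 (Foxo1KO/Foxo1AAA) and 3.17 (Foxo1AAA) above the WT mean in the median of 7 genes, against 0.52 and 0.06 on the Foxo1KO arrays, and the myeloid receptor Csf1r was at 12.38 and 11.99 there against 8.36 to 9.12 on the other 4 arrays. Xist was at 6.27 and 6.04 on these 2 arrays and at 12.03 to 13.43 on the rest. The Y-linked gene Eif2s3y was at 3.91 and 4.05 on replicate 1 of WT and of Foxo1KO and at 9.91 or above on the other arrays. Foxo1 itself was at 10.87 and 10.65 on the Foxo1KO arrays, 9.66 in Foxo1KO/Foxo1AAA, 10.71 in Foxo1AAA, and 11.03 and 11.35 on the WT arrays, and whether its probe set lies in the deleted part was not given.

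In Foxo1KO Treg cells, transcripts of 35 of the 36 measured replication and S-phase genes rose over WT, and no gene fell. A call meant an adjusted p under 0.05 in limma, with Benjamini-Hochberg adjustment across the 13645 genes tested. By that rule 11.2% of all tested genes were called higher and 10.7% lower, and at an unadjusted p under 0.05 all 36 genes were higher. The median difference was 0.825 log2 units, against 0.025 over all tested genes, and single genes ranged between 0.25 and 1.81. Both Foxo1KO arrays lay above both WT arrays for 36 of 36 genes, against 32.7% of all tested genes. The arrays measure RNA from a population, so more cells in S phase and more RNA of these genes in each cell cannot be told apart.

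**Figure D2:**
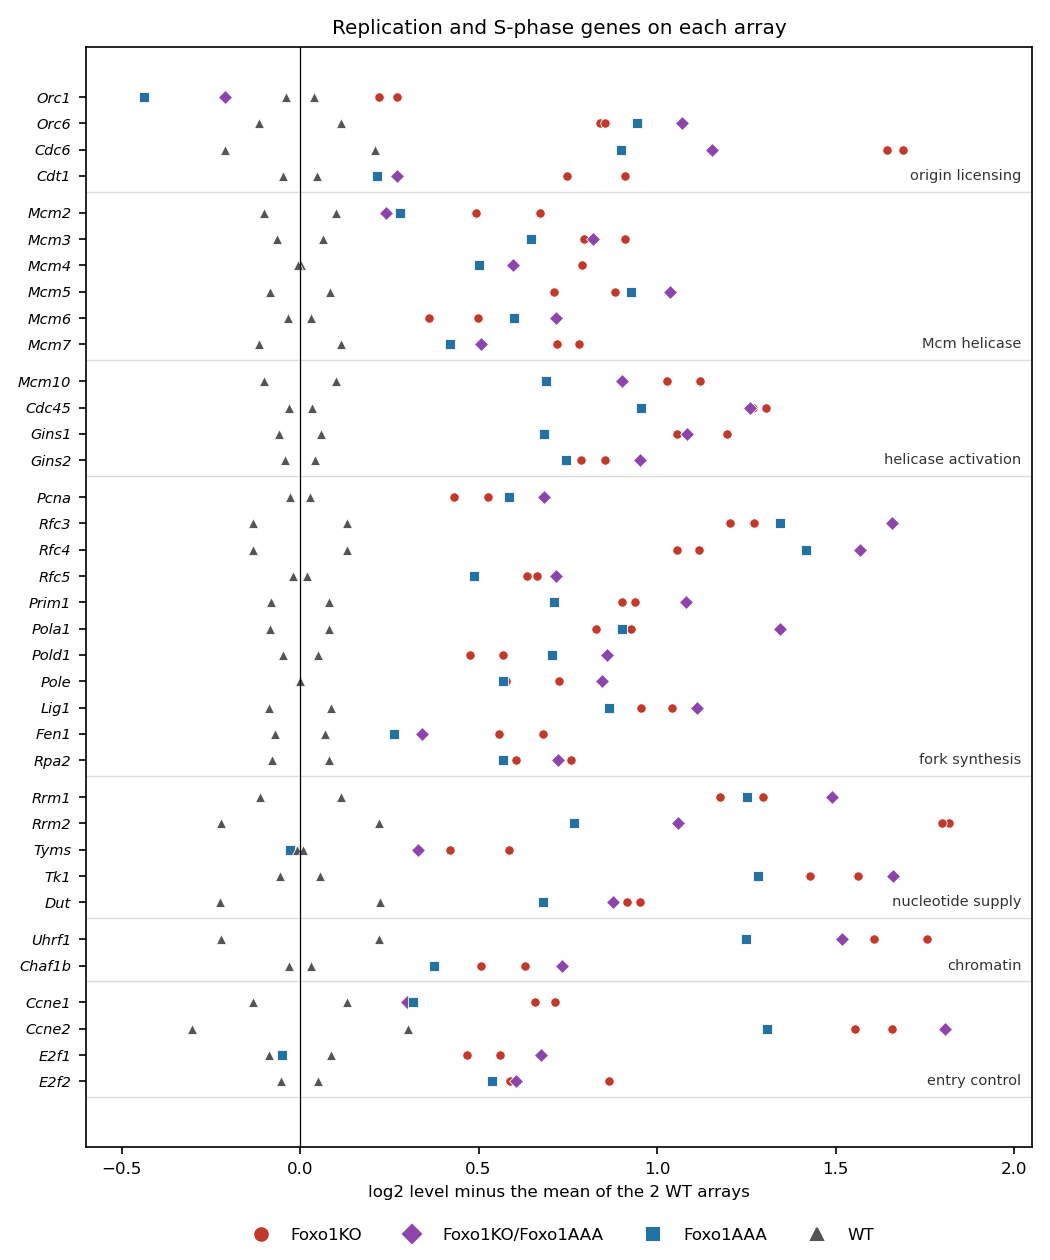
Log2 level of each of the 36 genes minus the mean of the WT arrays, by array, with genes grouped by role; circles are Foxo1KO (n = 2), diamonds Foxo1KO/Foxo1AAA (n = 1), squares Foxo1AAA (n = 1) and triangles WT (n = 2), and a marker can hide another at the same value. All Foxo1KO circles lie right of the WT triangles, and Orc1 is the gene whose Foxo1AAA square lies furthest left, at -0.44.

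Nucleotide supply held the largest single difference, and all 5 of its genes rose (median 1.24). Rrm2 was at log2 13.02 and 13.00 on the Foxo1KO arrays, 12.26 on the Foxo1KO/Foxo1AAA array, 11.97 on the Foxo1AAA array, and 11.43 and 10.98 on the WT arrays. By this probe set, its brightest, the levels fell into separate steps, with Foxo1KO highest, the Foxo1AAA arrays between, and WT lowest. The step from Foxo1KO to Foxo1KO/Foxo1AAA was smaller by its second probe set (-0.37) and was not called there. Rrm2 rose 3.50-fold in Foxo1KO over WT (log2 difference 1.81, SE 0.14, adjusted p = 4e-05). Rrm1, the large subunit of the same enzyme, rose by 1.24 (SE 0.11, adjusted p = 8.3e-05). Tk1, the cytosolic thymidine kinase, was at 9.39 and 9.52 in Foxo1KO, 9.62 in Foxo1KO/Foxo1AAA, 9.24 in Foxo1AAA, and 8.01 and 7.90 in WT, so that WT alone was low. Its difference was 1.5 (SE 0.10, adjusted p = 2.2e-05). Dut, which removes dUTP, rose by 0.93 (SE 0.14, adjusted p = 0.0017). Tyms, thymidylate synthase, was dim, at 6.15 and 6.31 in Foxo1KO, 6.06 in Foxo1KO/Foxo1AAA, 5.70 in Foxo1AAA, and 5.72 and 5.74 in WT. Its difference of 0.50 (SE 0.10, adjusted p = 0.0068) can be understated, since dim probe sets flatten near background.

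Origin licensing contained both a large and the smallest difference. Cdc6, the ATPase that helps load the Mcm ring, was at 9.68 and 9.72 in Foxo1KO, 9.19 in Foxo1KO/Foxo1AAA, 8.93 in Foxo1AAA, and 8.24 and 7.82 in WT, and rose 3.18-fold in Foxo1KO (log2 1.67, SE 0.14, adjusted p = 5.3e-05). Orc1 was at 7.71 and 7.66 in Foxo1KO, 7.23 in Foxo1KO/Foxo1AAA, 7.0 in Foxo1AAA, and 7.48 and 7.40 in WT. By its brightest probe set Orc1 was thus lowest on the Foxo1AAA arrays, and Foxo1KO lay only just above WT. By its second probe set, Foxo1AAA (0.95) and Foxo1KO/Foxo1AAA (1.39) lay above WT instead. Its Foxo1KO difference of 0.25 (SE 0.09) did not pass the test (adjusted p = 0.098), although its second probe set gave 0.93 and passed (adjusted p = 0.00024). Cdt1, the loading partner of Cdc6 that geminin holds in check, rose by 0.83 (SE 0.10, adjusted p = 0.00047), and Orc6, the smallest subunit of the origin complex, by 0.85 (SE 0.11, adjusted p = 0.00056).

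The 6 genes of the Mcm2 to Mcm7 ring all rose, within a narrow range of 0.43 to 0.85 log2 units (median 0.72). Mcm3 had the largest difference among them, and Mcm6 the smallest. Mcm6 was at 12.04 and 12.17 in Foxo1KO, 12.39 in Foxo1KO/Foxo1AAA, 12.28 in Foxo1AAA, and 11.71 and 11.64 in WT (difference 0.43, SE 0.10, adjusted p = 0.014). Its 2 groups did not overlap, but the gap was small. The 4 genes that activate the ring rose too, with a median of 1.10 and a range of 0.82 to 1.29. Cdc45, which joins the ring to form the active helicase, was at 9.02 and 8.98 in Foxo1KO, 8.98 in Foxo1KO/Foxo1AAA, 8.67 in Foxo1AAA, and 7.75 and 7.68 in WT. Gins1 (1.13) and Gins2 (0.82), subunits of GINS, and Mcm10 (1.07), which helps start the helicase, also rose, with adjusted p of 0.00034 or less. The second-brightest probe sets of Cdc45 and Mcm10 gave 0.09 (adjusted p = 0.64) and 0.29 (adjusted p = 0.088), so neither was called by that probe set. Whether ring and activator genes differ in size of response was not tested.

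All 11 genes that act at the fork rose, with a median of 0.68. The clamp loader subunits Rfc3 (1.24) and Rfc4 (1.09) stood at the upper end, and Rfc5, another subunit, was at 0.65. Lig1, the ligase that seals Okazaki fragments, rose by 1.00, and Fen1, the flap nuclease that prepares those fragments, by 0.62. Prim1, a primase subunit (0.92), and Pola1, the catalytic subunit of DNA polymerase alpha (0.88), which together start each strand, lay above the leading-strand Pole (0.65) and the lagging-strand Pold1 (0.52). Rpa2, a subunit of the protein that coats single-stranded DNA, rose by 0.68. Pcna had the smallest difference of the 11. It was at 13.28 and 13.38 in Foxo1KO, 13.53 in Foxo1KO/Foxo1AAA, 13.44 in Foxo1AAA, and 12.82 and 12.88 in WT (0.48, SE 0.09, adjusted p = 0.0068). The Pcna probe set is among the bright ones, where array values can flatten, and whether this lowered its difference was not tested.

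The chromatin genes Uhrf1 and Chaf1b, a subunit of the histone chaperone CAF-1, both rose. Uhrf1 was at 10.80 and 10.96 in Foxo1KO, 10.72 in Foxo1KO/Foxo1AAA, 10.45 in Foxo1AAA, and 9.42 and 8.98 in WT, with no overlap between the WT arrays and the other 4. It rose 3.21-fold in Foxo1KO (log2 1.68, SE 0.14, adjusted p = 6.8e-05), against 0.57 (SE 0.10, adjusted p = 0.0031) for Chaf1b. The 4 genes that control entry into S phase rose too. Ccne2, a partner of Cdk2, was at 9.43 and 9.54 in Foxo1KO, 9.69 in Foxo1KO/Foxo1AAA, 9.19 in Foxo1AAA, and 8.18 and 7.58 in WT, a difference of 1.60 (SE 0.17, adjusted p = 0.00025). The WT arrays lay further apart for Ccne2 (0.61) than for any other gene of the set, yet both were below all other arrays. Ccne1, the other cyclin E, rose by 0.69, and the activator E2Fs, E2f2 and E2f1, by 0.73 and 0.51 (adjusted p = 0.0021 and 0.0072).

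A few calls depended on single arrays. Leaving out Foxo1KO replicate 1 left 33 calls and the 2 lost were Mcm2 and E2f1, leaving out Foxo1KO replicate 2 ended those of Mcm6 and Tyms, and leaving out WT replicate 2 ended that of Mcm6 (0.40, adjusted p = 0.067). On the WT arrays, replicate 1 was above replicate 2 for 32 of the 36 genes, by a median of 0.16 against -0.001 over all genes, a gap below the knockout difference.

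Foxo1AAA without the knockout also had higher replication transcripts than WT. Here 29 of the 36 genes were called higher, where 13.4% of all tested genes were, and 1 was called lower, where 14.1% were. The median difference was 0.68, against -0.02 over all tested genes, and the single Foxo1AAA array lay above both WT arrays for 33 of 36 genes, against 40.9% of all tested genes. This array has no replicate and was assumed to vary like the WT and Foxo1KO pairs, and that also holds for Foxo1KO/Foxo1AAA below. The largest differences were those of the clamp loader genes Rfc4 (1.42, SE 0.14, adjusted p = 0.00024) and Rfc3 (1.34, SE 0.14, adjusted p = 0.00031), followed by Ccne2 (1.31, SE 0.21, adjusted p = 0.0034), Tk1 (1.28, SE 0.12, adjusted p = 0.00022) and Rrm1 (1.25, SE 0.13, adjusted p = 0.00043).

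Rfc4 was at 9.60 and 9.67 in Foxo1KO, 10.12 in Foxo1KO/Foxo1AAA, 9.97 in Foxo1AAA, and 8.68 and 8.42 in WT, so both Foxo1AAA arrays lay above the Foxo1KO arrays. Rfc3 was at 8.90 and 8.83 in Foxo1KO, 9.29 in Foxo1KO/Foxo1AAA, 8.97 in Foxo1AAA, and 7.76 and 7.50 in WT, the same order. Rrm1 was at 10.99 and 11.11 in Foxo1KO, 11.30 in Foxo1KO/Foxo1AAA, 11.07 in Foxo1AAA, and 9.93 and 9.70 in WT, and only WT stood apart. At the other end, Orc1 fell in Foxo1AAA by 0.44 on the log2 scale (SE 0.11, adjusted p = 0.023). Its second probe set gave 0.95 in the opposite direction (adjusted p = 0.00099), so no direction is given for the gene. The differences of Cdt1 (0.22, adjusted p = 0.23), E2f1 (-0.05, adjusted p = 0.79) and Tyms (-0.03, adjusted p = 0.89) did not pass the test. Leaving out WT replicate 2 ended the calls of Mcm7, Dut, Chaf1b and E2f2, leaving out WT replicate 1 those of Orc1 and Chaf1b, and leaving out either Foxo1KO array, which enters through the shared error, those of Mcm7 and Chaf1b. With the second-brightest probe set 9 of the 29 higher calls were not made, and Mcm6 (-0.073), Mcm10 (-0.113), Cdc45 (-0.274) and Chaf1b (-0.335) then lay below 0.

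Markers of other cells moved with this comparison. Of the tested markers, 6 of 7 myeloid, 6 of 7 dendritic and 5 of 7 B cell genes were called higher in Foxo1AAA than in WT, and 1 myeloid and 1 dendritic gene lower. In the same comparison 3 of 7 CD8 T and NK cell markers were called higher and 1 lower. Of 4 thymocyte markers 1 was called higher and 1 lower, and of 5 erythroid markers 1 was called higher. In the median, dendritic markers lay 1.19 (Foxo1KO/Foxo1AAA) and 0.98 (Foxo1AAA) above the WT mean, against 0.23 and 0.09 in Foxo1KO, and B cell markers 0.85 and 0.98, against 0.36 and -0.07. The ratio of 3' to 5' Gapdh signal, a sign of RNA quality, was 0.10 log2 units in Foxo1AAA and 0.19 in Foxo1KO/Foxo1AAA, against 0.42 and 0.32 in Foxo1KO and 0.48 and 0.65 in WT. The same ratio of Actb was 0.62 in Foxo1AAA and 0.66 in Foxo1KO/Foxo1AAA, against 0.76 and 0.76 in Foxo1KO and 0.70 and 0.73 in WT. The part of other cells and of RNA quality in the result was not tested. The sex-linked genes above cannot be told apart from Foxo1AAA in this comparison, because each of the 2 Foxo1AAA arrays had low Xist. In the comparison of Foxo1KO with WT, 2 of 7 myeloid, 3 of 7 dendritic, 1 of 7 B cell and 4 of 7 CD8 T and NK cell markers were called higher and 1 B cell marker, Ighm (-0.67), lower, the CD8 T and NK list with medians of 0.78 and 0.55 above the WT mean on the Foxo1KO arrays, and their part in that result was not tested. Between Foxo1KO and WT none of 5 erythroid markers was called by limma (2 were higher at an unadjusted p under 0.05). Of 4 thymocyte markers none was called higher in Foxo1KO than in WT (0 at an unadjusted p under 0.05) and 1 lower. The thymocyte genes Rag1 and Rag2 and the terminal transferase gene Dntt stayed below the filter on all arrays, and so did the globin gene Hba-a1.

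For 28 of the 36 replication and S-phase genes no difference was detected when Foxo1AAA was added to the knockout. Of the 36 genes, 4 were called higher in Foxo1KO/Foxo1AAA than in Foxo1KO, where 19.6% of all tested genes were, and 4 lower, where 20.2% were. The median difference was 0.055 against -0.015 over all tested genes. The single array lay above both Foxo1KO arrays for 18 of the 36 genes and below both for 14, against 42.7% and 45.8% of all tested genes. The shares called were below those of all genes, and a p that misses the threshold does not show that levels were alike. In the same comparison 5 of 7 myeloid, 6 of 7 dendritic and 3 of 7 B cell markers were called higher and 1 myeloid and 1 dendritic marker lower. CD8 T and NK cell markers had 3 of 7 called higher and 3 lower. The part of these markers in the differences was not tested.

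By their brightest probe sets, the genes called lower were 3 of the 4 licensing genes and Rrm2. Rrm2 fell by 0.75 on the log2 scale (SE 0.17, adjusted p = 0.0095), to 12.26 in Foxo1KO/Foxo1AAA against 13.02 and 13.00 in Foxo1KO. Cdt1 was at 11.33 in Foxo1KO/Foxo1AAA, against 11.80 and 11.97 in Foxo1KO, and fell by 0.56 (SE 0.12, adjusted p = 0.0083). Cdc6 fell by 0.51 (SE 0.17, adjusted p = 0.039). Orc1 differed by -0.46 (SE 0.11, adjusted p = 0.014), but its second probe set was called higher by 0.46 (adjusted p = 0.022), so no direction is given for the gene. For all 4 the Foxo1KO/Foxo1AAA array was below both Foxo1KO arrays. Orc6, the remaining licensing gene, differed by 0.22 (adjusted p = 0.20).

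The genes called higher were the fork genes Rfc4 (0.48, SE 0.14, adjusted p = 0.023), Pola1 (0.47, SE 0.12, adjusted p = 0.018), Rfc3 (0.42, adjusted p = 0.038) and Pold1 (0.34, adjusted p = 0.049). Pola1 was at 10.002 in Foxo1KO/Foxo1AAA, against 9.49 and 9.59 in Foxo1KO, 9.56 in Foxo1AAA, and 8.74 and 8.58 in WT. The Foxo1KO/Foxo1AAA array was the highest of the 6 for Pola1. By their brightest probe sets, 10 of the 11 fork genes had differences above 0, with a median of 0.20. The licensing genes, Orc1 included, had a median of -0.49. With the second-brightest probe set, Rfc3 was at 0.01, Pold1 at 0.15, Cdt1 at -0.31 and Orc1 at 0.46. Whether these roles differ was not tested. Rpa2 (0.04), Mcm3 (-0.03) and Cdc45 (-0.03) had the smallest differences, with adjusted p of 0.82 to 0.87.

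The 4 higher calls were lost under other scalings and the 4 lower calls were kept, and calls of both kinds depended on single arrays. The split of 4 higher and 4 lower became 0 higher and 10 lower when each array was centred on its median, and 0 higher and 5 lower with cyclic loess. Centring moved the median over all tested genes to -0.19 in this comparison and to -0.19 and -0.23 for Foxo1AAA and Foxo1KO/Foxo1AAA against WT, so the replication genes' median of -0.12 after centring lay above that of all genes. Without Foxo1KO replicate 1, only Rrm2 and Cdt1 passed, and without Foxo1KO replicate 2 Rrm2, Cdt1, Orc1 and Pola1 passed.

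Probe sets of the same gene also disagreed in this comparison. Single probe sets were tested in a separate limma fit, adjusted over all 34958 probe sets listed with 1 gene. Of 78 probe sets for the listed genes, 69 lay at or above the filter, and 25 genes had several such probe sets. In Foxo1KO against WT all 69 differed in the positive direction and 62 were called higher, and all 25 genes had probe sets of 1 sign. In Foxo1KO/Foxo1AAA against Foxo1KO, 12 probe sets were called higher and 6 lower, and 11 of the 25 genes had probe sets of both signs. Mcm3 and Orc1 had probe sets called in both directions, at 0.72 and -0.60 for Mcm3 (adjusted p = 0.0026 and 0.0067) and at 0.46 and -0.46 for Orc1 (adjusted p = 0.022 and 0.019). The Mcm3 probe set at 0.72 read 8.68 in Foxo1KO/Foxo1AAA against 8.01 and 7.91 in Foxo1KO, and the one at -0.60 read 7.54 against 8.20 and 8.07.

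Uhrf1 gave -0.16 by its brightest probe set and 0.81 by its second, and Fen1 gave -0.28 and 0.57. With the second-brightest probe set, the calls of Cdt1 (-0.31), Rfc3 (0.01), Pold1 (0.15) and Rrm2 (-0.37) were not made. By the same rule, 8 genes without a call were called. Rrm2 gave -0.75, -0.37 and -0.02 by its 3 probe sets, and only the brightest was called. That brightest probe set is of the kind named _x_at, which by the maker's naming can hold probes shared with other transcripts. The 16 bright probe sets named _x_at or _s_at had a median of -0.26 and the other 53 a median of 0.08, against 0.00 and 0.02 for all bright probe sets on the array named in those ways. Which probe set reports each transcript was not tested.

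**Figure D3:**
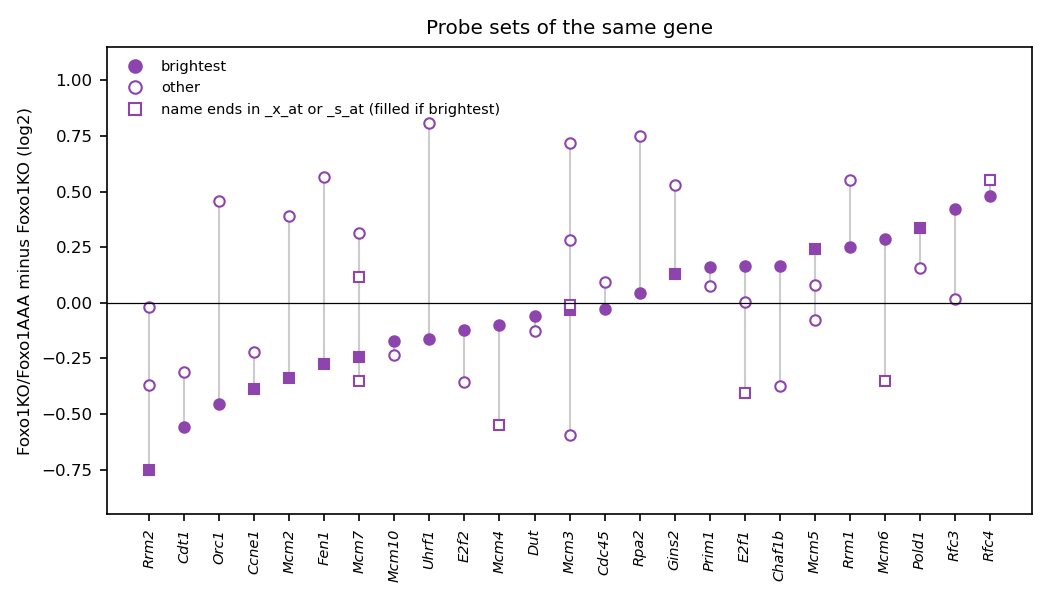
Foxo1KO/Foxo1AAA minus Foxo1KO difference (log2) of each probe set for the 25 genes with several probe sets above the filter; each line joins the probe sets of 1 gene, filled markers are the brightest and squares are named _x_at or _s_at. Mcm3 and Orc1 reach both sides of 0, with Mcm3 between -0.60 and 0.72.

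Set against WT, Foxo1KO/Foxo1AAA had 30 of the 36 genes called higher, where 17% of all tested genes were, and none lower, where 13.7% were; no gene was lower at an unadjusted p under 0.05 either. The median difference was 0.87, against -0.02 over all tested genes, and the array lay above both WT arrays for 35 of 36 genes, against 41.6% of all tested genes. Ccne2 (1.81, SE 0.21, adjusted p = 0.00052), Tk1 (1.66, SE 0.12, adjusted p = 3.7e-05), Rfc3 (1.66, SE 0.14, adjusted p = 6.9e-05), Rfc4 (1.57, SE 0.14, adjusted p = 9.7e-05) and Uhrf1 (1.52, SE 0.18, adjusted p = 5e-04) had the largest. Cdt1 (0.27, adjusted p = 0.13), Mcm2 (0.24, adjusted p = 0.21) and Orc1 (-0.21, adjusted p = 0.19) had the smallest, and none of these 3 passed the test. With the second-brightest probe set 8 of the 30 higher calls were not made, and 5 other genes were called higher. The calls not made were those of Mcm4 (0.30), Mcm6 (0.11), Mcm7 (0.33), Mcm10 (0.06), Cdc45 (0.18), Dut (0.20), Chaf1b (-0.13) and E2f2 (0.23). The 3 comparisons with WT share the WT arrays, so their values for a gene are not independent of each other. On the Foxo1KO/Foxo1AAA array, myeloid (3.13), dendritic (1.19), CD8 T and NK cell (1.06), B cell (0.85) and erythroid (0.40) markers lay above the WT mean in the median. T and Treg cell (-0.05) and thymocyte (-0.32) markers lay below it. Xist was at 6.27, against 13.43 and 12.03 in WT. The part of other cells was not tested, and the sex-linked genes cannot be told apart from Foxo1AAA. Leaving out WT replicate 2 ended the call of Mcm7 (0.39).

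Between the 2 arrays that carry Foxo1AAA, no replication gene passed the test for a knockout difference. None of the 36 genes was called in Foxo1KO/Foxo1AAA against Foxo1AAA by limma, where 0.066% of all tested genes were called higher and 0.00733% lower, and 8 were higher at an unadjusted p under 0.05. The Foxo1KO/Foxo1AAA array lay above the Foxo1AAA array for 34 of 36 genes, against 55.6% of all tested genes, with a median of 0.22 against 0.02. E2f1, which drives many genes of this set, had the largest difference. It was at 7.86 in Foxo1KO/Foxo1AAA and 7.14 in Foxo1AAA (0.73, SE 0.14, adjusted p = 0.12). The others at that end were Ccne2 (0.50), Pola1 (0.44), Gins1 (0.40) and Tk1 (0.38), with adjusted p of 0.33 to 0.57. Cdt1 (0.06), Mcm2 (-0.04) and Ccne1 (-0.02) differed least, with adjusted p of 0.97 to 0.99.

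The interaction compared the knockout difference in the presence of Foxo1AAA with that in its absence. It was called lower for 12 of the 36 genes, where 3.14% of all tested genes were called, and higher for none, where 2.81% were; at an unadjusted p under 0.05, 29 were lower and none higher. The median was -0.67, against 0.01 over all tested genes. A gene's interaction also equals its Foxo1KO/Foxo1AAA minus Foxo1KO difference (median 0.055) less its Foxo1AAA minus WT difference (median 0.68). A negative value can therefore arise without a fall from Foxo1KO to Foxo1KO/Foxo1AAA. Tk1 was at 9.62 in Foxo1KO/Foxo1AAA against 9.39 and 9.52 in Foxo1KO. Rrm2 was, by its brightest probe set, at 12.26 against 13.02 and 13.00. For Rrm2 the knockout difference was 0.29 with Foxo1AAA and 1.81 without it (interaction -1.52, SE 0.24, adjusted p = 0.0099). For Cdc6 it was 0.25 with and 1.67 without (-1.41, SE 0.24, adjusted p = 0.012), for Uhrf1 0.27 and 1.68 (-1.41, SE 0.25, adjusted p = 0.015), and for Tk1 0.38 and 1.5 (-1.12, SE 0.17, adjusted p = 0.0086). Ccne2 had a similar size but a wider error (-1.11, SE 0.30, adjusted p = 0.074).

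The other 8 called genes were Cdc45, Cdt1, Gins1, Lig1, Mcm10, Rfc3, Rfc4 and Rrm1. By role, 3 of 4 helicase activation genes, 3 of 5 nucleotide supply genes, 3 of 11 fork genes, 2 of 4 licensing genes and 1 of 2 chromatin genes were called, and none of the 6 ring genes or the 4 entry control genes. Chaf1b (-0.21, adjusted p = 0.58), Tyms (-0.15, adjusted p = 0.73) and Orc1 (-0.02, adjusted p = 0.97) had the smallest interactions, and E2f1 alone was above 0 (0.21, adjusted p = 0.60). The number called ranged from 4, without Foxo1KO replicate 2, to 19, without WT replicate 1, and was 6 without Foxo1KO replicate 1 and 10 without WT replicate 2.

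**Figure D4:**
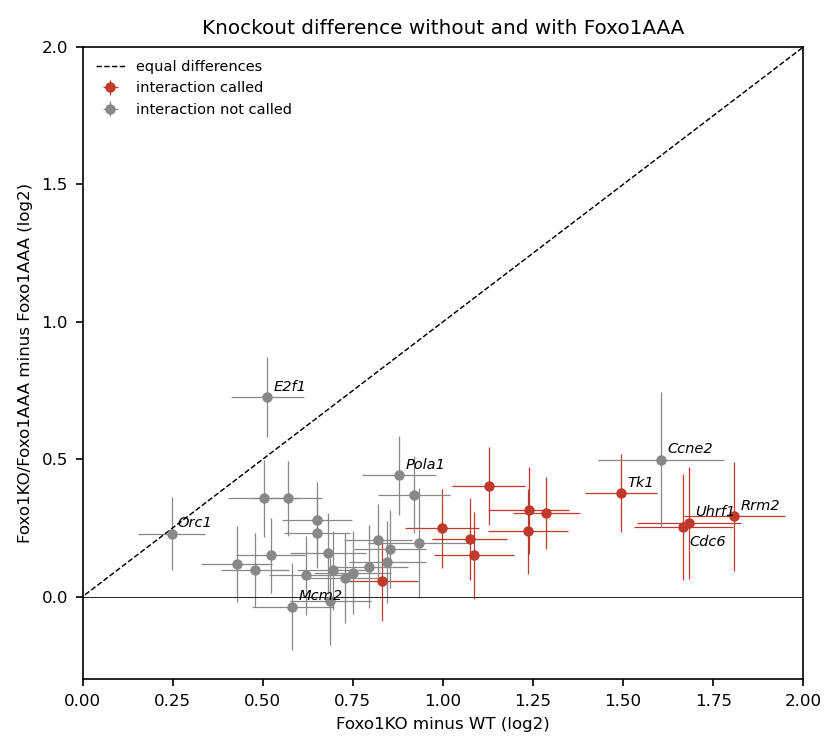
Knockout difference of each of the 36 genes with Foxo1AAA (Foxo1KO/Foxo1AAA minus Foxo1AAA, vertical) against that without it (Foxo1KO minus WT, horizontal), both in log2 units, with bars of 1 SE; red points have a called interaction and the dashed line marks equal differences. Apart from E2f1, every gene lies below the line, and Rrm2 sits at 1.81 across and 0.29 up.

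Other genes of the same pathways, in lists chosen with earlier results of these data known, were read for context, against 11.2% of all tested genes called higher and 10.7% lower in Foxo1KO over WT, and 19.6% and 20.2% in Foxo1KO/Foxo1AAA over Foxo1KO. Of 37 further replication genes, 22 were called higher in Foxo1KO than in WT and none lower (1 at an unadjusted p under 0.05), with a median of 0.42. The largest were Clspn, the claspin adaptor of the checkpoint (1.61), Dscc1, of the alternative clamp loader (1.39), and Gmnn, the geminin that inhibits Cdt1 (1.31). At the other end, Orc5 (-0.28, adjusted p = 0.13) and Orc4 (-0.21, adjusted p = 0.24) did not pass the test. With Foxo1AAA added to the knockout, 7 of the 37 were called higher, near the 19.6% of all tested genes, Orc4 most (0.65), and 3 lower, Wdhd1 (-0.49), Prim2 (-0.40) and Recql4 (-0.37).

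Of 14 E2F and pocket protein genes, 7 rose in Foxo1KO over WT and 1 fell. The atypical repressor E2Fs E2f8 and E2f7 rose most, while E2f4 (0.13, adjusted p = 0.43), E2f5 (0.03, adjusted p = 0.89) and E2f6 (-0.02, adjusted p = 0.89), which also act as repressors, did not pass the test. E2f8 was at 9.83 and 9.66 in Foxo1KO, 9.40 in Foxo1KO/Foxo1AAA, 9.07 in Foxo1AAA, and 8.01 and 7.51 in WT (1.99, SE 0.15, adjusted p = 4.2e-05), and E2f7 rose by 1.75 (adjusted p = 9.8e-05). Both had their levels in the order of the brightest Rrm2 probe set, with Foxo1KO highest and WT lowest. The pocket protein gene Rbl2 rose by 0.92, and Tfdp2, a dimer partner of E2Fs, fell by 0.54. Between Foxo1KO/Foxo1AAA and Foxo1KO, Rbl2 (-0.95), E2f4 (-0.61), Rb1 (-0.43) and Mybl2 (-0.40) fell and Tfdp1 (0.44) and Tfdp2 (0.40) rose.

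Nucleotide synthesis genes outside the set were mostly not called. Of 16 tested, none was called higher in Foxo1KO (2 at an unadjusted p under 0.05, adjusted p = 0.052 for Mthfd2, a folate enzyme of mitochondria) and 2 were called lower, Gart, of purine synthesis (-0.58), and Samhd1, which degrades deoxynucleotides (-0.34), a share near the 10.7% of all tested genes. Relative to Foxo1KO, in Foxo1KO/Foxo1AAA 6 were called higher, Cad, which starts pyrimidine synthesis, most (0.83), and Impdh1 (-0.51) lower. Mitosis genes had larger differences in the median than the replication genes. All 21 tested were called higher in Foxo1KO (median 1.62), with Birc5, the survivin of the chromosomal passenger complex, at 1.93, and all 21 in Foxo1AAA (median 1.78) and in Foxo1KO/Foxo1AAA (median 2.154) against WT. Of these, relative to Foxo1KO, Foxo1KO/Foxo1AAA had 12 of the 21 called higher, Ube2c, a ubiquitin-conjugating enzyme of the anaphase-promoting complex, most (1.04), and 1 lower, Ccnb2 (-0.51), and the interaction was called lower for 20 of the 21. Whether the replication and the mitosis list differ in these shifts was not tested.

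**Figure D5:**
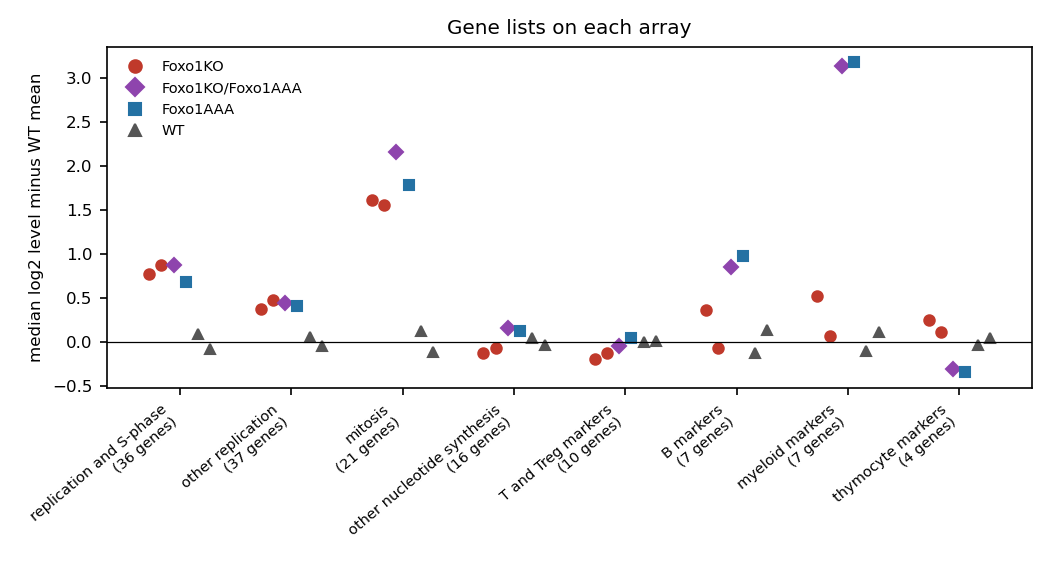
Median over each gene list of the log2 level minus the WT mean, by array, with the number of genes tested in each list; circles are Foxo1KO, diamonds Foxo1KO/Foxo1AAA, squares Foxo1AAA and triangles WT. The replication and S-phase genes stand at 0.68 to 0.87 on the 4 arrays other than WT, mitosis genes at 1.55 to 2.154, and myeloid markers above 3 on the 2 Foxo1AAA arrays alone.

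Replication stress and repair genes and replication chromatin genes mostly rose too. Of 17 stress and repair genes, 14 rose in Foxo1KO over WT, Brca1, of homologous recombination, most (1.43), and 1 fell, the checkpoint kinase gene Atm (-0.32, adjusted p = 0.046). Of 11 chromatin genes 8 rose, with the histone chaperone gene Asf1b at 1.43, and the smallest difference was that of Rbbp4 (-0.03, adjusted p = 0.89). In Foxo1KO/Foxo1AAA against Foxo1KO, Exo1, an exonuclease of repair (0.60), had the largest rise of the first list. Of the chromatin list, Nasp (10.87 against a Foxo1KO mean of 10.44) and Cbx5 (10.17 against 9.73) rose most. Dnmt1, the maintenance DNA methyltransferase that Uhrf1 recruits, fell (-0.43, adjusted p = 0.026).

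Regulators of G1 and of quiescence moved in both directions. Of 14 G1 genes tested, 7 rose in Foxo1KO, the inhibitor genes Cdkn2c (1.71) and Cdkn1a (1.25) most, and 2 fell, Cdkn1c (-1.07) and Myc (-0.64), where 11.2% of all tested genes were called higher and 10.7% lower. With Foxo1AAA added, 5 were higher than in Foxo1KO alone, Cdkn1c most (1.33), and Ccnd3 (-0.71), Cdk6 (-0.64), Cdkn2c (-0.62) and Cdkn1a (-0.60) were lower. Of 12 quiescence genes 6 fell in Foxo1KO, among them Foxp1 (-1.60), Tob1 (-1.40) and Btg2 (-1.01), and none rose (0 at an unadjusted p under 0.05). The 12 include Foxo1, the knocked-out gene itself, at a mean of 10.76 in Foxo1KO against 11.19 in WT. A lower Foxo1 level there is part of the design. Of these 12, 7 were higher in Foxo1KO/Foxo1AAA than in Foxo1KO, Btg2 (1.49) and Tob1 (1.43) most, and Foxo1 itself was lower (-1.10). In that comparison 19.6% of all tested genes were called higher and 20.2% lower. The single Foxo1KO/Foxo1AAA array also had the high myeloid markers given above, whose part in these differences was not tested.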

How the data were processed

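Transcript levels of FACS-sorted Treg cells were measured on 6 arrays in 4 groups. Per the labels' protocols, miRNeasy extraction gave total RNA, of which 2 ug went into biotin-labelled cRNA. The authors deposited log2 values, and the submitters' processing notes name RMA, limma 3.12.1 and R 2.15. RMA corrects background, quantile-normalizes the arrays together and summarizes each probe set, so a shift of most transcripts would be hidden, and values flatten when very dim or very bright. The number of arrays limits the precision.

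Of 45101 probe sets, 34958 were listed with 1 gene, 932 with several and 9211 were not listed in the platform annotation. The brightest probe set stood for each of 18194 genes, and the lowest 25% of genes by mean over all arrays were left out (dimmest tested mean 5.47). A limma model (version 3.58.1, R 4.3.3) gave each group its own coefficient. The residual spread had 2 degrees of freedom and the prior 6.59, with an SD of 0.10. Tests were two-sided, with Benjamini-Hochberg adjustment over 13645 genes and a call at an adjusted p under 0.05. Adjusted p-values given for further probe sets of a gene came from a separate fit over the 34958 probe sets listed with 1 gene. An exact permutation of 2 arrays against 2 cannot go below 0.333, so none was used. The fit was tested on simulated data. Promoter windows were RefSeq's for GRCm38.p6. Figures were drawn with Python 3.11.15 and matplotlib 3.10.9.

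The genes, lists and probe set rules were chosen with earlier results of these data known. All listed genes are accounted for by role. In each comparison full statistics were given for up to 10 of them, those with the largest and smallest differences and any called against the majority, and for the other lists the largest difference in each direction. Alternatives covered the filter, the probe set, the variance prior, the scaling, single arrays, a replicate block, and the WT and Foxo1KO arrays alone.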

Additional observations from a re-analysis of the deposited data

Results flagged for a closer look

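For 12 of the 36 replication and S-phase genes the knockout difference with Foxo1AAA present differed from that without it in limma's interaction test, and these are given here with the interaction in log2 units. The nucleotide supply genes were Rrm2 (-1.52, adjusted p = 0.0099), Tk1 (-1.12, adjusted p = 0.0086) and Rrm1 (-0.998, adjusted p = 0.019). The licensing genes were Cdc6 (-1.41, adjusted p = 0.012) and Cdt1 (-0.77, adjusted p = 0.038). The helicase activation genes were Cdc45 (-0.98, adjusted p = 0.011), Mcm10 (-0.86, adjusted p = 0.029) and Gins1 (-0.72, adjusted p = 0.047). The fork genes were Rfc4 (-0.94, adjusted p = 0.026), Rfc3 (-0.92, adjusted p = 0.028) and Lig1 (-0.75, adjusted p = 0.044), and the chromatin gene was Uhrf1 (-1.41, adjusted p = 0.015). In all 12 the knockout difference was above 0 both with Foxo1AAA (0.06 for Cdt1 to 0.40 for Gins1) and without it (0.83 for Cdt1 to 1.81 for Rrm2). Foxo1AAA without the knockout was also above WT in all 12 (0.22 for Cdt1 to 1.42 for Rfc4), which by itself lowers the interaction. With the second-brightest probe set 7 of the 12 were not called, and Cdc45 then had an interaction of 0.368, in the opposite direction, and Mcm10 one of -0.12. The value with Foxo1AAA compares 1 array with 1 array, and both had the high myeloid markers and the low Xist given above, whose part in the result was not tested.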

How the results depend on the processing

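Over the alternatives, the counts called higher in Foxo1KO over WT stayed within 1.5 times of 35 and none was called lower. No source states that the replicate numbers are paired (correlation of same-numbered deviations -0.096 over all genes and 0.067 over the set). Eif2s3y, however, was low on replicate 1 of Foxo1KO and WT (4.05 and 3.91) and high on replicate 2 of each (9.91 and 10.09). The replicate block gave 35 higher, 0 lower and a median of 0.825. The WT and Foxo1KO arrays alone also gave 35. The median without single arrays was 0.72 to 0.88, and 33 to 35 were called. For Foxo1KO/Foxo1AAA against Foxo1KO, the number called lower was 2 with the mean of all probe sets, 7 with a trended prior and 10 after centring, and 2 to 5 without single arrays. The number called higher was 0 after centring and with cyclic loess, 9 with the second-brightest probe set and 0 to 3 without single arrays. Its median was -0.12 after centring, -0.043 with cyclic loess, 0.16 for probe sets without a shared-probe suffix and 0.02 to 0.09 without single arrays. For Foxo1AAA against WT, none was called lower with the mean of all probe sets or the second-brightest and 0 to 1 without single arrays, while 25 to 29 were higher. Its median was 0.52 after centring, 0.79 without shared-probe suffixes and 0.59 to 0.75 without single arrays. For Foxo1KO/Foxo1AAA against WT, 1 was called lower after centring, and the median was 0.67 after centring, 1.07 without shared-probe suffixes and 1.01 with the second-brightest probe set. For the interaction, the median was -0.57 with the mean of all probe sets and 21 were called lower with a trended prior, against 4 to 19 without single arrays. Signs also turned for single genes. In Foxo1KO against WT none of the 36 turned, although with the second-brightest probe set Mcm10, Cdc45, Dut and Chaf1b were not called. In Foxo1KO/Foxo1AAA against Foxo1KO 21 of the 36 turned under at least 1 alternative, 5 of them with a call there. Among the genes with full statistics or a call these were Pola1 (-0.073, mean of probe sets), Rpa2 (-0.13 centred, -0.084 loess, -0.035 to 0.12 without single arrays), Mcm3 (0.072 mean, -0.089 to 0.024 without single arrays, 0.28 without suffixes), Cdc45 (0.033 mean, 0.093 second probe set) and Orc1 (0.001 mean, 0.46 second). Uncalled genes that turned and were then called were Mcm2 (0.392) and Fen1 (0.566) under both other probe set rules, and Uhrf1 (0.81) and Chaf1b (-0.374) with the second probe set. In Foxo1AAA against WT 7 turned, which were E2f1 (0.021 loess, -0.137 to 0.038 without single arrays), Tyms (0.21 loess), Orc1 (0.26 mean, 0.95 second) and, with the second probe set, Mcm6 (-0.073), Mcm10 (-0.113), Cdc45 (-0.274) and Chaf1b (-0.335), and in Foxo1KO/Foxo1AAA against WT 2 turned, Orc1 (0.59 mean, 1.39 second) and Chaf1b (-0.132 second). In Foxo1KO/Foxo1AAA against Foxo1AAA 5 turned, none of them called, among them Mcm2 (0.12 mean, 0.27 for both other probe set rules) and Ccne1 (0.047 and 0.11), and in the interaction 2 turned, Orc1 (-0.056 to 0.02 without single arrays) and Cdc45 (0.368 second). The rules using probe set suffixes and the second-brightest probe set were chosen after seeing the data. The cause of these changes was not tested.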
